A study of Mus musculus with 4 samples.

Results

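Of the 32285 features counted in each of 4 single-cell RNA sequencing libraries, 10 genes belong to the chemokine system that draws monocytes into tissue. They are the CC chemokines *Ccl2*, *Ccl7*, *Ccl12*, *Ccl8*, *Ccl11*, *Ccl6*, *Ccl9*, *Ccl3* and *Ccl4* and the receptor gene *Ccr2*, taken as the features whose symbol is one of these names. All 10 were found in every library. The libraries came from tibial muscle of *Nse-Bmp4* mice, a C57BL/6 line at 6-8 weeks of age in which the promoter of neuron specific enolase drives a *Bmp4* cDNA, and which forms bone in soft tissue (heterotopic ossification) after injury and, with age, without it. One library was made from uninjured muscle (Uninjured) and 1 each from muscle that had received cardiotoxin 1 day, 3 days or 7 days before (1, 3 and 7 dpi, for days post injury). Cardiotoxin is a snake venom toxin that kills muscle fibres. The Uninjured mice carried the same transgene, so no library is free of it. Each library was a pool of 3 muscles digested with collagenase and was the only library of its time point, so a difference between time points cannot be told apart from a difference between libraries, and no test and no p-value is given.

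CC chemokines are small secreted proteins that bind G protein coupled receptors on white blood cells and guide them along a gradient. CCL2, CCL7 and CCL12 act through CCR2, the receptor that lets classical monocytes leave the bone marrow and enter damaged tissue, and muscle repair after injury is known to depend on these cells. CCL3, CCL6 and CCL9 can act through CCR1, CCL8 of the mouse mainly through CCR8, and CCL11 (eotaxin) through CCR3 of eosinophils.

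A unique molecular identifier (UMI) marks 1 captured transcript, and the deposited values are whole UMI counts per gene and cell barcode. The libraries held 12031, 11722, 15160 and 23752 barcodes from Uninjured to 7 dpi, with a median of 8629, 5562, 4214 and 3083 UMIs, and 10307, 9641, 12605 and 20300 of them passed the filters on depth, mitochondrial share and doublets. Pairs of libraries shared 30 to 95 barcodes. Cells were placed in classes by marker gates, each a panel of 6 genes of which a cell had to hold UMIs of at least 3. The mesenchymal gate, whose panel holds *Pdgfra* and *Prrx1*, took 7544, 3021, 4712 and 5375 cells. Its panel stood at 2670 to 3149 CPM (UMIs per 1000000 UMIs of the gated cells), against at most 853 CPM of any other panel. The classical monocyte gate took 166, 1052, 328 and 184 cells and the macrophage gate 66, 366, 430 and 107. They are pooled below as monocytes and macrophages with the mixed cells and the 1 to 6 nonclassical monocytes of each library. The pool held 254, 1609, 837 and 309 cells. Mixed cells were those whose highest marker count, 3 or more, was tied between the panels of these classes. At 3 dpi the 3 cells of the nonclassical gate held more of the classical panel (1438 CPM) than of their own (1363 CPM). The macrophage gate held the classical monocyte panel at 1530, 3607, 2286 and 1089 CPM from Uninjured to 7 dpi. The classical monocyte gate held that panel at 2519, 4882, 4171 and 3690 CPM. Contrasts of the macrophage and classical monocyte gates below are thus between classes that overlap in markers. Each level below adds up the UMIs of a class in 1 library and is given in CPM. Brackets after a level or a ratio give its 95% interval, which covers counting error only. Free RNA in a droplet suspension puts UMIs into cells that do not make the transcript, so each level is set beside a class that should lack the gene. This was the B cells for 7 of the members and the endothelial cells for *Ccl3*, *Ccl4* and *Ccr2*. The endothelial gate held only 22, 65, 112 and 67 cells from Uninjured to 7 dpi, against 206, 1349, 379 and 185 B cells. An endothelial level is thus the weaker background, most of all in Uninjured.

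All 9 ligand genes lie on chromosome 11 of mouse GRCm38 (GENCODE M21 annotation) in 2 groups. The first runs over 81.2 kb in the order *Ccl2* (chr11:82035571-82037453), *Ccl7* (chr11:82045712-82047525), *Ccl11* (chr11:82057823-82062955), *Ccl12* (chr11:82101845-82103400) and *Ccl8* (chr11:82115185-82116799), all on the plus strand. The second begins 1456.1 kb further along and spans 91.8 kb. It holds *Ccl9* (chr11:83572919-83578636), *Ccl6* (chr11:83587882-83593087) and *Ccl3* (chr11:83647844-83649355) on the minus strand and *Ccl4* (chr11:83662584-83664683) on the plus strand. *Ccr2* lies on chr9:124101950-124113557, plus strand. Each member is annotated as a protein coding gene, and UMIs are counted over its transcripts. The longest run of identical bases between transcripts of any pair of members was 25 bases, between *Ccl6* and *Ccl9*, followed by 23 between *Ccl2* and *Ccl7*, so the counts of these neighbours are separable over nearly all of their length.

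RefSeq promoter sequences were at hand for 6 of the 10 members, and the 250 bases before the start of 4 of them are shown because these genes form neighbouring pairs, *Ccl12* with *Ccl8* and *Ccl6* with *Ccl9*, whose levels are set side by side further on. They are read 5′ to 3′ on the strand of the gene from GRCm38.p6 at chr11:82101595-82101844 (*Ccl12*, plus), chr11:82114935-82115184 (*Ccl8*, plus), chr11:83593088-83593337 (*Ccl6*, minus) and chr11:83578637-83578886 (*Ccl9*, minus). Capitals mark matches, on either strand, to any of 6 motifs. The motif searched for NF-kB, a factor of the inflammatory response, was 3 G bases followed after any 5 bases by 2 C bases, and that for ISRE, the interferon response element, was a repeat of GAAA with any 2 bases between the copies. AP-1, which also answers to stress and cytokines, was read as TGANTCA, and the STAT factors downstream of cytokine receptors as TTCNNNGAA. The core promoter box TATA was read as TATAAA. PU.1, the master factor of myeloid cells, was read as AGGAAG.
Ccl12: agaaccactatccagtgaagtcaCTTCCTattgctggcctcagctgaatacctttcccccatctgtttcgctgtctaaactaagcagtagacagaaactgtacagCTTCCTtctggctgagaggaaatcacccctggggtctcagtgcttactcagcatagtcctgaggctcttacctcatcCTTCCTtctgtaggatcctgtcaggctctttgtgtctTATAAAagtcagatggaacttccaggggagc
Ccl8: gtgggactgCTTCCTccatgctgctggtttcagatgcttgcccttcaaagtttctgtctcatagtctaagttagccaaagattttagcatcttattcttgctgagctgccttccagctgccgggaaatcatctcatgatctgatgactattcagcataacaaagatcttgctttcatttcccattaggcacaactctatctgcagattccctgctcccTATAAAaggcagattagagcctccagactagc
Ccl6: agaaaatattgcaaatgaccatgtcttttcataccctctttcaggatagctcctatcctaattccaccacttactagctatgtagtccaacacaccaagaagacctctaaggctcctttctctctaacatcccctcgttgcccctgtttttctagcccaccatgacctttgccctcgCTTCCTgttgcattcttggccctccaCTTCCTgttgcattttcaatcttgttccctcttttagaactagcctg
Ccl9: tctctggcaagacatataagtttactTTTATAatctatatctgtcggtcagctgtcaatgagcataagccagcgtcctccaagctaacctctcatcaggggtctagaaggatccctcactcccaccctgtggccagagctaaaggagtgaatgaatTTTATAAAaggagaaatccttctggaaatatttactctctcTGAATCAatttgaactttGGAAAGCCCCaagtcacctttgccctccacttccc

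The promoters of *Ccl12* and *Ccl8* both held TATAAA, beginning 31 and 32 bases before the start of the gene, and AGGAAG on the opposite strand, 3 times in *Ccl12* and once in *Ccl8*. *Ccl6* had no TATAAA match and held AGGAAG at 73 and 47 bases before the start, while *Ccl9* alone among the 6 members held the NF-kB motif (35 bases before the start) and the AP-1 motif (53 bases). Its TATAAA matches at 94 and 92 bases overlap on opposite strands. Among 32851 promoters of this length the motifs occurred in 45.8% for NF-kB, 6.75% for AP-1, 12.4% for TATA, 7.02% for STAT, 2.98% for ISRE and 29.5% for PU.1. The STAT and ISRE motifs matched 0 of the 6 member promoters. A match is a run of letters and not a measured binding site.

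The 10 genes fell into a few patterns of cell class. *Ccl2* and *Ccl7* were shared between mesenchymal cells and monocytes and macrophages, *Ccl11* lay in mesenchymal cells, *Ccl12* in macrophages and after injury also in monocytes, *Ccl8* in mesenchymal cells and, after injury, at a higher level in macrophages, *Ccl6* and *Ccl9* in monocytes and macrophages, *Ccl3* and *Ccl4* in NK cells and the myeloid classes, and *Ccr2* in monocytes, macrophages, dendritic cells, NK cells and T cells. In the mesenchymal gate *Ccl2*, *Ccl7*, *Ccl8* and *Ccl11* were above the B cell level in all 4 libraries, with the interval of the ratio above 1. The other 6 members were not above their background class there in any library. For those 6 genes this comparison does not separate the UMIs found in mesenchymal cells from free RNA. The UMI ratio of *Ccl9* to *Ccl6* in mesenchymal cells was 3.20, 0.899, 6.18 (5.05-7.62) and 1.42 from Uninjured to 7 dpi. In monocytes and macrophages it was 0.531, 0.648, 0.754 and 0.688. The source of the mesenchymal *Ccl9* UMIs was not tested.

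**Figure D1:**
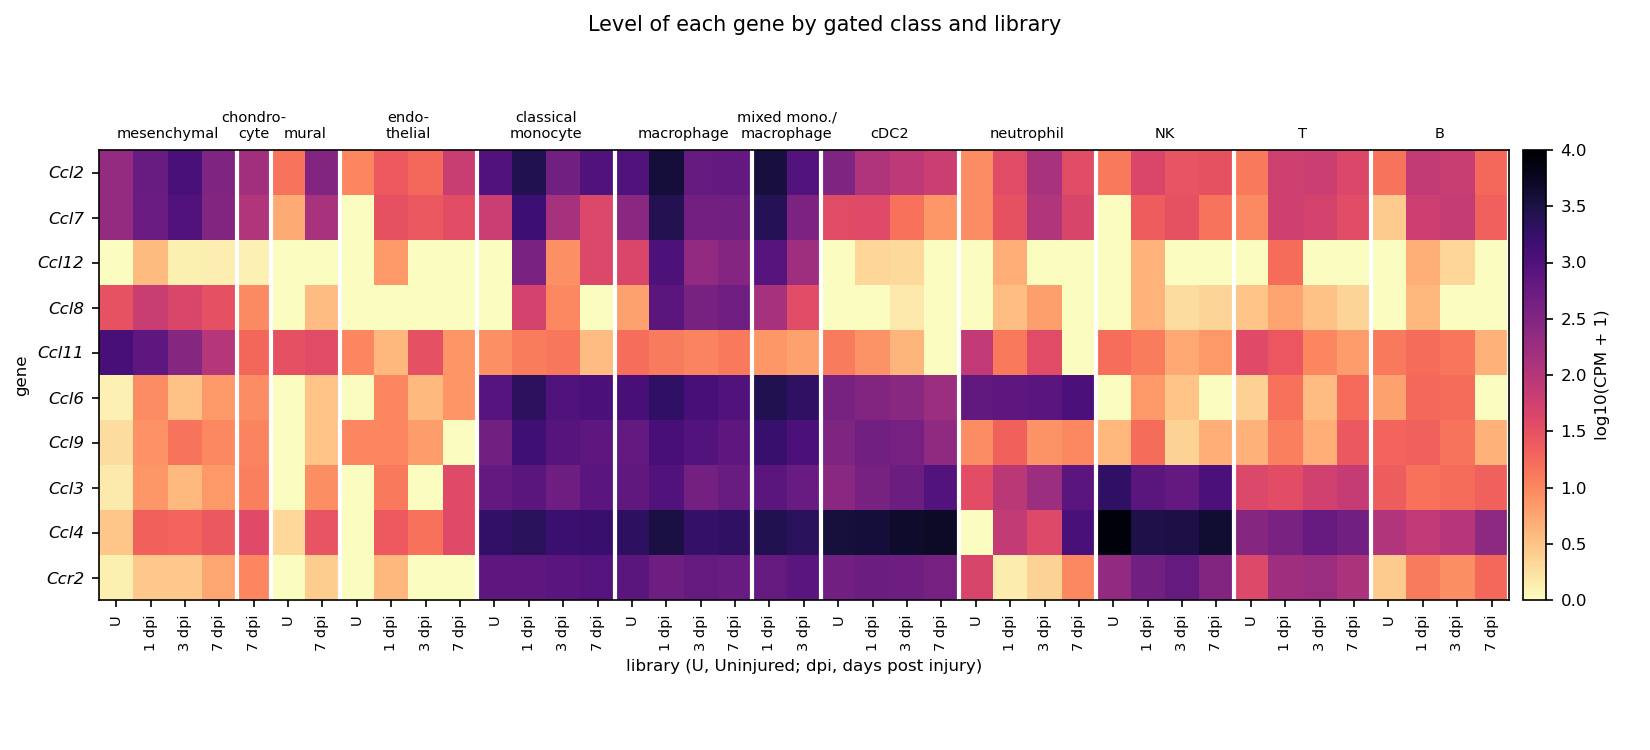
Level of the 10 genes (rows) in 12 gated classes, with 1 column per library (U, Uninjured) where the gate held at least 20 cells. Colour gives log10(CPM + 1). *Ccl11* is darkest in the mesenchymal columns, *Ccl12* is darkest in the macrophage and mixed columns at 1 dpi and *Ccl8* in the macrophage columns after injury, and *Ccl4* is darkest in the NK cells of Uninjured at 8135 CPM.

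Between successive libraries a gene was called when its CPM differed by 2-fold or more and the higher library held at least 50 UMIs. In monocytes and macrophages at 1 dpi against Uninjured, 6 of the 10 members were higher (*Ccl2*, *Ccl6*, *Ccl7*, *Ccl8*, *Ccl9* and *Ccl12*) and 0 were lower, beside 18.1% of 7765 genes higher and 2.36% lower. The median log2 ratio was 1.24 over the members and 0.27 over all genes tested. From 1 to 3 dpi 3 members were lower (*Ccl2*, *Ccl7* and *Ccl12*) and 0 higher, beside 4.09% of genes lower and 3.07% higher, with medians of -0.71 and -0.04. From 3 to 7 dpi 0 of the 9 members that reached the UMI minimum were called in either direction, beside 1.96% of genes higher and 8.66% lower. The members' median log2 ratio was then -0.06 and that of all genes -0.20.

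The count in mesenchymal cells has to be read with the background. At 1 dpi against Uninjured 9 of 10 members were higher and 0 lower, beside 6.73% of 12828 genes higher and 4.43% lower, but 6 of the 9 were genes at or under the level of their background class, which leaves *Ccl2*, *Ccl7* and *Ccl8*. From 1 to 3 dpi 4 members were lower and 0 higher, beside 5.57% and 6.22% of genes, and of the 4 only *Ccl11* was above background. From 3 to 7 dpi 3 were lower (*Ccl2*, *Ccl7* and *Ccl11*) and 3 higher (*Ccl3*, *Ccl6* and *Ccr2*), beside 6.05% and 7.89% of genes, and none of those 3 higher genes was above background. For *Ccl6* and *Ccr2* the background classes of 7 dpi held 0 UMIs, in 185 B cells and 67 endothelial cells. The upper limit of *Ccl6* in B cells, 12.5 CPM, lay over the mesenchymal 6.12 CPM. The rule thus could not have placed *Ccl6* above background, and the few endothelial cells give no firm background for *Ccr2*. The median log2 ratios of the members were 1.07, -0.33 and -0.40 in these comparisons, beside 0.10, -0.05 and -0.06 over all genes tested. *Lyz2*, a macrophage transcript, stood in mesenchymal cells at 3.02, 25.4, 17.0 and 54.6 CPM from Uninjured to 7 dpi, against 7852 to 19085 CPM in monocytes and macrophages.

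*Ccl2*, the main ligand of CCR2, reached its highest level on different days in the mesenchymal and myeloid cells. In monocytes and macrophages it stood at 1011 CPM in Uninjured, 2979.8 at 1 dpi, 586.6 at 3 dpi and 828 at 7 dpi. In mesenchymal cells it was 206 CPM (203-209) in Uninjured, 567 at 1 dpi, 1123 at 3 dpi and 327 at 7 dpi. The B cell level was 13.6, 72.5, 65.6 and 16.9 CPM. Monocytes and macrophages were thus highest at 1 dpi and lowest at 3 dpi, the library in which mesenchymal cells were highest.

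At 1 dpi against Uninjured the *Ccl2* ratio was 2.95 (2.82-3.08) in monocytes and macrophages and 2.75 (2.69-2.81) in mesenchymal cells. From 1 to 3 dpi it was 0.197 (0.189-0.205) in the former and 1.98 (1.95-2.01) in the latter, just under the 2-fold limit. From 3 to 7 dpi mesenchymal *Ccl2* was 3.44-fold lower (3.37-3.50), while monocytes and macrophages stood at 1.41 times (1.32-1.52) their 3 dpi level. The ordering of the classes therefore changed. Per UMI, monocytes and macrophages held 4.91 and 5.25 times the *Ccl2* of mesenchymal cells in Uninjured and at 1 dpi, mesenchymal cells held 1.91 times (1.84-1.99) that of monocytes and macrophages at 3 dpi, and at 7 dpi the first order was back at 2.53 (2.38-2.69). The classical monocyte and macrophage gates gave similar levels in Uninjured (933 and 970.1 CPM, ratio interval 0.938-1.15), and both dropped by over 5-fold from 1 to 3 dpi.

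The share of the *Ccl2* UMIs that each class supplied also depended on how many cells it held. The mesenchymal gate held 76.1% of all *Ccl2* UMIs in Uninjured, 27.8% at 1 dpi, 87.1% at 3 dpi and 49.4% at 7 dpi. Monocytes and macrophages held 10.2%, 62.2%, 3.82% and 4.38%. Cells that passed no gate held 11.9%, 8.52%, 7.63% and 25.4%, and were 11.8%, 16.4%, 28.8% and 37.0% of the kept cells. The gates took 73.2%, 31.3%, 37.4% and 26.5% of the kept cells for mesenchymal cells and 2.46%, 16.7%, 6.64% and 1.52% for monocytes and macrophages. At 7 dpi another 17.5% of *Ccl2* UMIs lay in cells of the chondrocyte gate, which held 5137 cells in that library and at most 1 in any other, at 157 CPM. Mural cells, which wrap small vessels, stood at 322 CPM at 7 dpi against 13.7 CPM (13 UMIs) in Uninjured, next to the 327 CPM of mesenchymal cells (ratio interval 0.936-1.10). The mural gate of 7 dpi also held the mesenchymal panel at 2072 CPM, against 2670 CPM in mesenchymal cells, while in Uninjured the highest panel other than its own, that of B cells, stood at 406 CPM. The part of mesenchymal RNA in its *Ccl2* level was not tested.

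**Figure D2:**
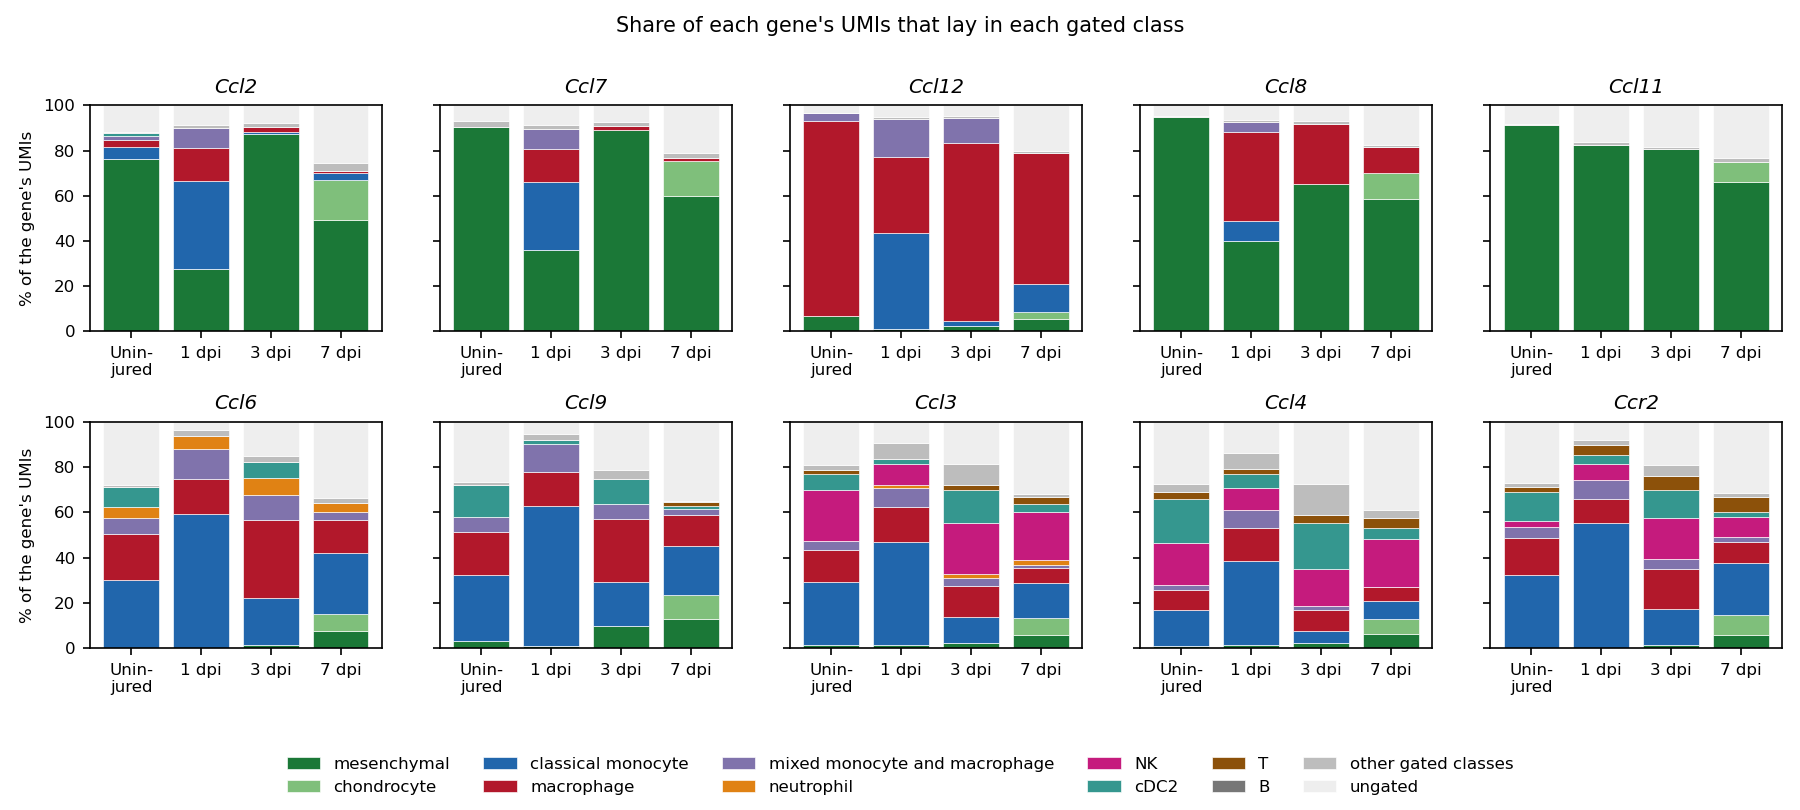
Share of each gene's UMIs (percent, stacked) that lay in each gated class, with 1 bar per library. For *Ccl2* and *Ccl7* the mesenchymal part is largest in Uninjured, at 3 dpi and at 7 dpi and the monocyte and macrophage parts together are larger at 1 dpi, while the *Ccl11* bars are mainly mesenchymal in all 4 libraries.

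Mesenchymal *Ccl2* was held by few cells in Uninjured. A *Ccl2* UMI was found in 23.7% of mesenchymal cells in Uninjured, 43.8% at 1 dpi, 57.3% at 3 dpi and 43.6% at 7 dpi, at median depths of 9345, 8960, 7596 and 5490 UMIs. In B cells, at median depths of 2444, 2833, 1753 and 1448 UMIs, the share was 3.88%, 13.3%, 11.9% and 2.70%. With every cell thinned to 1000 UMIs, which left out 0, 3, 32 and 136 shallower mesenchymal cells, the mesenchymal shares were 8.44%, 15.7%, 30.2% and 19.0% and those of B cells 1.94%, 5.29%, 5.22% and 2.29%. The 10% of mesenchymal cells with most *Ccl2* held 90.3%, 85.8%, 65.7% and 71.7% of its UMIs. So the highest level went with the widest spread over cells. In monocytes and macrophages the thinned share was 35.0%, 69.7%, 28.9% and 36.0%.

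*Ccl7*, which neighbours *Ccl2* and also encodes a CCR2 ligand, followed it closely in mesenchymal cells and less closely in classical monocytes. Both genes were highest at 1 dpi in classical monocytes, where *Ccl2* stood at 933, 2710, 468 and 970 CPM from Uninjured to 7 dpi. Mesenchymal *Ccl7* stood at 206, 526, 961 and 305 CPM from Uninjured to 7 dpi. The classical monocyte gate held 61.2, 1478, 139 and 39.9 CPM, and the macrophage gate 260.2, 2624, 450.4 and 461 CPM. B cells held 1.70, 57.3, 70.1 and 20.3 CPM, so the monocyte level at 7 dpi was close to background while the macrophage level was not.

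At 1 dpi against Uninjured the *Ccl7* ratio was 24.1 (19.2-30.8) in classical monocytes, 10.1 (8.58-11.9) in macrophages and 2.55 (2.50-2.61) in mesenchymal cells. At 3 dpi it was 10.6-fold lower than at 1 dpi in classical monocytes and 5.83-fold lower in macrophages, and 1.83 times (1.80-1.86) higher in mesenchymal cells. The UMI ratio of *Ccl7* to *Ccl2* shows the same contrast within each library, in tags counted and not per transcript length. It was 0.999, 0.927, 0.856 and 0.933 in mesenchymal cells, a narrow range beside the 206 to 961 CPM over which *Ccl7* itself moved. In macrophages it was 0.268, 0.718, 0.733 and 0.735. In classical monocytes it was 0.0657, 0.545, 0.298 and 0.0411, far below the mesenchymal ratio in Uninjured and at 7 dpi. Within the mesenchymal gate, cells with *Ccl2* held *Ccl7* more often than cells without it. In cells thinned to 1000 UMIs, *Ccl7* was found in 24.3%, 51.9%, 60.2% and 31.6% of mesenchymal cells with *Ccl2* and in 7.88%, 14.4%, 25.6% and 15.4% of those without. Monocytes and macrophages showed the same order, at 12.4%, 60.6%, 29.1% and 13.8% with *Ccl2* and 1.21%, 17.0%, 9.53% and 4.64% without. Their intervals overlapped at 7 dpi.

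**Figure D3:**
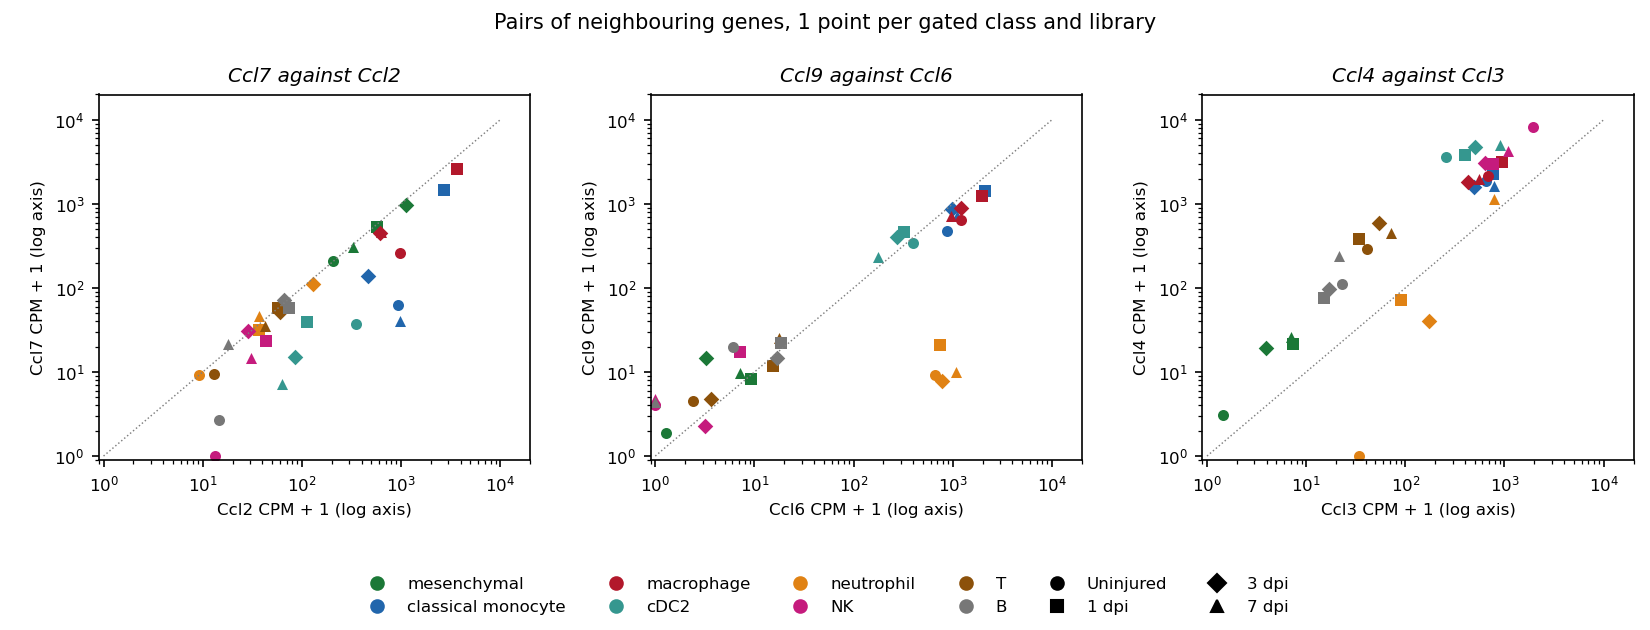
Level of *Ccl7* against *Ccl2*, *Ccl9* against *Ccl6* and *Ccl4* against *Ccl3* (CPM + 1, log axes), with 1 point per gated class (colour) and library (shape) and a dotted line of equal CPM. Mesenchymal points lie along the line in the first panel and classical monocytes fall below it in every library, least so at 1 dpi. Neutrophils fall far below the line in the second panel.

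*Ccl12*, whose product is another CCR2 ligand of the mouse, was almost absent before injury. The macrophage gate held 43.1 CPM in Uninjured (25 UMIs in 66 cells), 1066 at 1 dpi, 223 at 3 dpi and 297 at 7 dpi. Classical monocytes held 0, 382, 7.60 and 39.9 CPM, and mixed cells held 846 CPM at 1 dpi and 167 at 3 dpi. B cells held 0, 3.61, 1.13 and 0 CPM.

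At 1 dpi macrophage *Ccl12* was 24.7 times (16.7-38.3) its Uninjured level, and that of classical monocytes was at least 154-fold higher, against a floor of 3 UMIs over the gate. Between 1 and 3 dpi classical monocytes were 50.3-fold lower and macrophages 4.77-fold lower. The macrophage gate exceeded the classical monocyte gate by 2.79 times (2.65-2.94) at 1 dpi, 29.4 times (16.7-57.2) at 3 dpi and 7.44 times (5.02-11.3) at 7 dpi. Monocytes and macrophages held 92.8% of the 7971 *Ccl12* UMIs of the 1 dpi library, 91.9% of 615 at 3 dpi and 70.9% of 251 at 7 dpi. T cells at 1 dpi were the one other gated class of *Ccl12* above B cells, at 16.1 CPM (52 UMIs), and held the classical monocyte panel at 779 CPM.

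*Ccl8* was found at a low level in mesenchymal cells and, after injury, at a high level in few macrophages. The mesenchymal gate held 94.8%, 40.0%, 65.2% and 58.6% of its UMIs, and the macrophage gate 39.2%, 26.5% and 11.3% at 1, 3 and 7 dpi. Mesenchymal *Ccl8* stood at 29.1, 64.1, 42.7 and 31.2 CPM, against 0, 2.93, 0 and 0 CPM in B cells. The macrophage gate held 5.17 CPM in Uninjured (3 UMIs), 764 at 1 dpi, 397 at 3 dpi and 477 at 7 dpi. Classical monocytes held 0, 48.5, 8.87 and 0 CPM.

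Macrophage *Ccl8* at 1 dpi was 148 times its Uninjured level, with an interval of 50.5-718 from the 3 UMIs of Uninjured. Unlike *Ccl2*, *Ccl7* and *Ccl12* it was not called lower in macrophages at 3 dpi, with a 1.93-fold lower level, nor at 7 dpi, with a ratio of 1.20 (1.04-1.39) to 3 dpi. The macrophage gate exceeded the classical monocyte gate by 15.8 times at 1 dpi, 44.8 times (26.5-82.2) at 3 dpi and at least 124-fold at 7 dpi. A *Ccl8* UMI was found in 23.2%, 17.2% and 12.1% of macrophages at 1, 3 and 7 dpi, at median depths of 6159, 5013 and 3675 UMIs, against 0.964%, 0 and 0 of B cells. The upper Clopper-Pearson limit for the 0 of 185 B cells at 7 dpi is 1.97% of cells with a UMI, at a median depth of 1448 UMIs. The 10% of macrophages with most *Ccl8* held 92.3%, 94.2% and 99.1% of its UMIs. At 1 dpi the top 10% held 36.1% for *Ccl2* and 53.9% for *Ccl12*, so *Ccl8* was the most unevenly spread of the 3. In mesenchymal cells the ratio was 2.21 (2.07-2.35) at 1 dpi and 0.666 (0.626-0.709) from 1 to 3 dpi, and 7 dpi stood at 1.07 times (1.00-1.15) Uninjured.

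*Ccl11*, the eotaxin gene, was the one member highest before injury in mesenchymal cells. Its mesenchymal level was 1236 CPM in Uninjured, 704.5 at 1 dpi, 290.4 at 3 dpi and 102 at 7 dpi. B cells held 11.9, 15.6, 12.4 and 3.38 CPM, and monocytes and macrophages held 5.91 to 10.6 CPM and were not above B cells in any library. The 50 neutrophils of Uninjured held 74.5 CPM on 18 UMIs. Each library was lower than the one before, by 1.75-fold (1.73-1.78), 2.43-fold (2.38-2.48) and 2.85-fold (2.75-2.95), which made 7 dpi 12.1-fold (11.7-12.5) lower than Uninjured.

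The mesenchymal gate held 91.3%, 82.4%, 80.5% and 66.2% of all *Ccl11* UMIs. A *Ccl11* UMI was found in 82.1%, 86.2%, 63.2% and 22.4% of mesenchymal cells, and in 3.40%, 4.45%, 2.90% and 0.541% of B cells at the depths above. Thinned to 1000 UMIs the mesenchymal shares were 55.5%, 44.0%, 26.8% and 8.82%. *Ccl11* was thus a transcript of most mesenchymal cells in Uninjured, unlike *Ccl2*. Cells with *Ccl2* held *Ccl11* less often than cells without it, at 49.5% against 56.0% in Uninjured, 38.8% against 45.0% at 1 dpi, 17.8% against 30.8% at 3 dpi and 7.53% against 9.12% at 7 dpi, in thinned cells. The 95% intervals of the paired shares overlapped at 1 dpi and at 7 dpi. The immediate early genes, a list added after the data had been seen because they respond to handling of tissue, summed to 26783, 16116, 8871 and 8606 CPM in mesenchymal cells. Of the 7, 0 were called higher and 2 lower at 1 dpi, beside 6.73% and 4.43% of all genes tested. From 1 to 3 dpi 1 was lower, beside 5.57% of all genes tested. In monocytes and macrophages the immediate early genes summed to 26207, 17304, 16622 and 19376 CPM. Their part in the *Ccl11* levels, or in those of the other members in any class, was not tested.

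**Figure D4:**
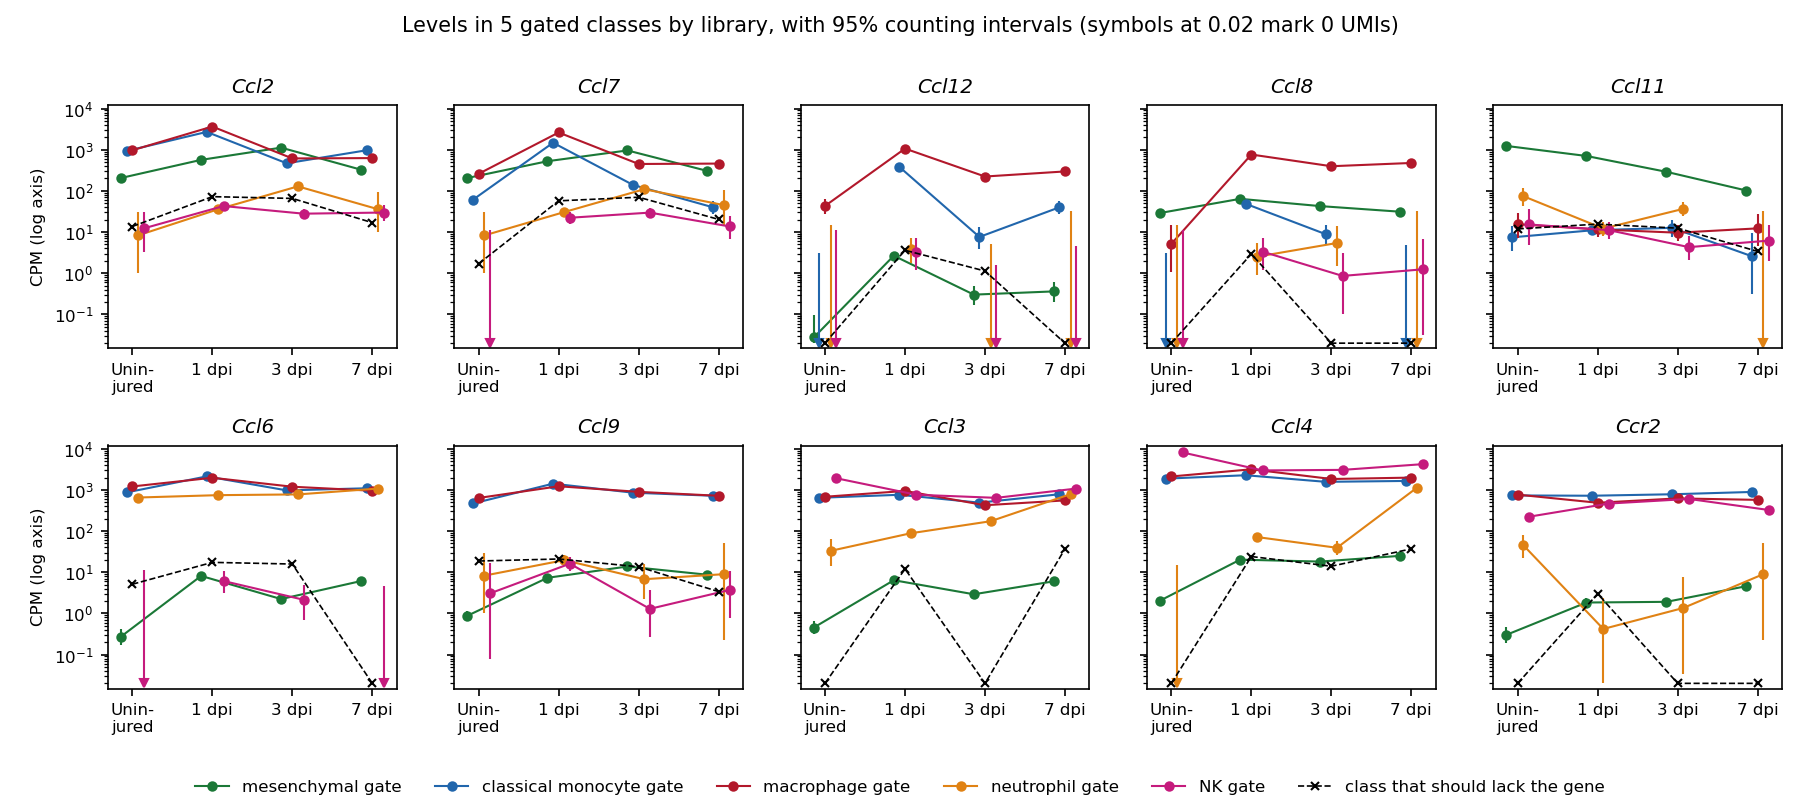
Level of each gene (CPM, log axis) by library in 5 gated classes, with vertical lines for 95% counting intervals, symbols at the foot for 0 UMIs, and a black dashed line for the class that should lack the gene (B cells, or endothelial cells for *Ccl3*, *Ccl4* and *Ccr2*). Mesenchymal *Ccl2* and *Ccl7* peak at 3 dpi and the monocyte and macrophage lines at 1 dpi, mesenchymal *Ccl11* is lower in each later library, and neutrophil *Ccl3* and *Ccl4* are highest at 7 dpi.

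Mesenchymal cells were also divided by pairs of marker genes, where a cell had to hold a UMI of both. The pairs were *Pi16 Dpp4* (adventitial fibroblasts of many tissues), *Smoc2 Col15a1* (fibroblasts within tissue), *C7 Gdf10*, *Cxcl5 Prg4*, *Lrrc15 Tnn* and *Tnmd Thbs4* (tendon). Of the cells with any pair, 1066 of 7049, 544 of 2674, 879 of 3563 and 691 of 2877 held more than 1. At 1 and 3 dpi *Ccl2* was highest in the *Cxcl5 Prg4* cells, which held it at 1764 CPM at 1 dpi (250 cells), 1784 at 3 dpi (1049 cells) and 580.4 at 7 dpi (55 cells), with under 20 such cells in Uninjured. These cells were deep, at a median of 18282 UMIs at 1 dpi. The *C7 Gdf10* cells held the least *Ccl2* of the pairs at 3 dpi, 409 CPM (384-436), and at 7 dpi, 148 CPM (93.8-222) in 22 cells. *Pi16 Dpp4* cells held 256, 365, 866 and 703 CPM, and at 7 dpi they held the most of the 6 pairs. *Ccl8* was near one level in the *Pi16 Dpp4* cells after injury, at 77.6, 75.9 and 69.4 CPM against 26.2 in Uninjured.

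*Ccl11* was divided otherwise. *Smoc2 Col15a1* cells held the most in each library, at 1792, 912, 471 and 291 CPM. *Pi16 Dpp4* cells held 678, 494, 328 and 202 CPM, and *C7 Gdf10* cells 410.1, 331, 232 and 206 CPM. The *Tnmd Thbs4* cells stood at 190, 160 and 47.7 CPM and then 25.4 CPM at 7 dpi, and the *Lrrc15 Tnn* cells at 27.4 CPM at 3 dpi and 15.7 CPM at 7 dpi. Every pair present in more than 1 library thus had less *Ccl11* in each later library, although the intervals of the *C7 Gdf10* cells at 3 and 7 dpi overlapped, as did those of the *Tnmd Thbs4* cells in Uninjured and at 1 dpi. *Lrrc15 Tnn* cells held the least *Ccl11* of the pairs at 3 dpi and, at 1292 CPM, the second highest level of *Ccl2*.

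**Figure D5:**
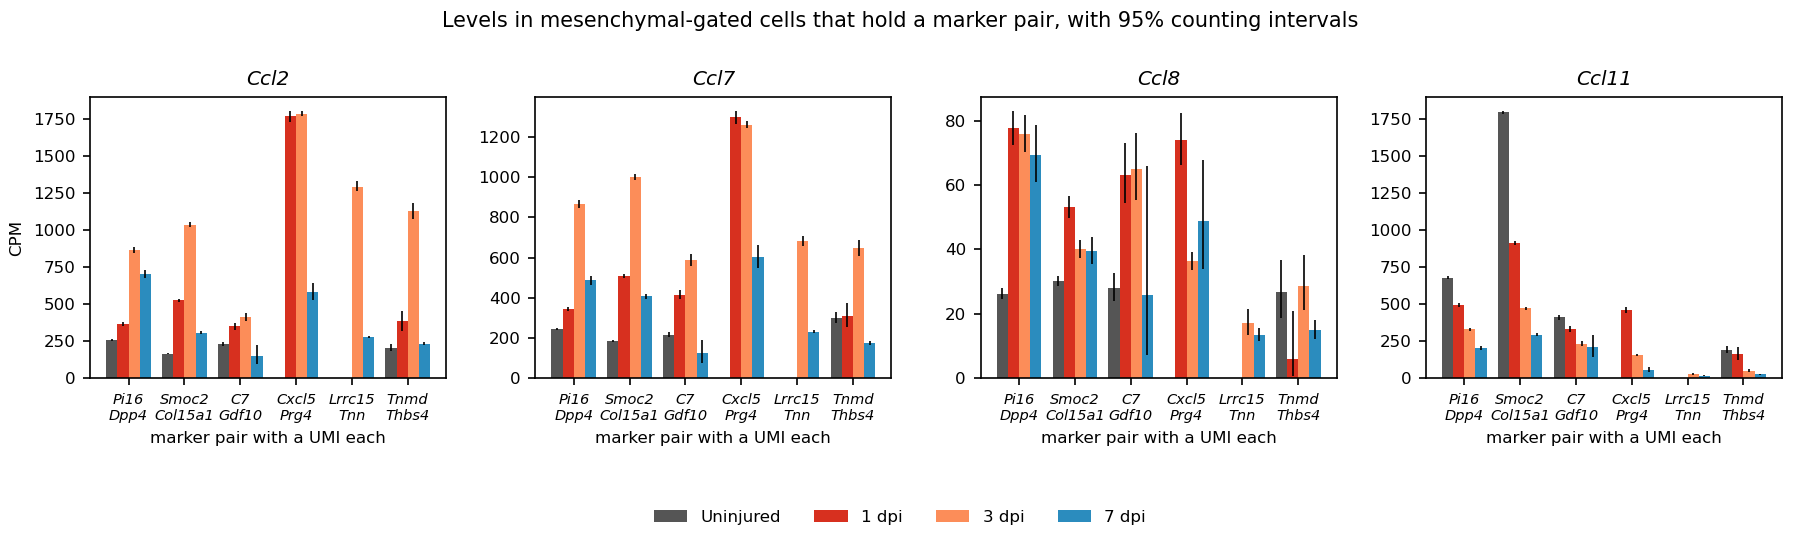
Level (CPM) of *Ccl2*, *Ccl7*, *Ccl8* and *Ccl11* in mesenchymal cells that held a UMI of both genes of a pair, with bars coloured by library, black lines for 95% counting intervals and no bar for under 20 cells. *Ccl2* bars are tallest for *Cxcl5 Prg4* at 1 and 3 dpi and *Ccl11* bars for *Smoc2 Col15a1* in Uninjured.

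*Ccl6* and *Ccl9*, neighbours that encode CCR1 ligands, were highest in myeloid classes and moved together in monocytes and macrophages. In monocytes and macrophages *Ccl6* stood at 1011, 2169.6, 1192 and 1063 CPM and *Ccl9* at 537, 1406, 899 and 731 CPM. B cells held at most 17.4 CPM of *Ccl6* and 21.0 CPM of *Ccl9*. At 1 dpi against Uninjured the ratio was 2.15 (2.05-2.25) for *Ccl6* and 2.62 (2.46-2.79) for *Ccl9*, and neither was called in a later comparison of that class. Both genes were expressed in every library, Uninjured included.

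Neutrophils parted them. The neutrophil gate held *Ccl6* at 654, 746, 778 and 1079 CPM, within 1.39 times between successive libraries, and *Ccl9* at 8.27, 19.7, 6.78 and 8.99 CPM on 1 to 47 UMIs. The UMI ratio of *Ccl9* to *Ccl6* was 0.0127, 0.0264, 0.00871 and 0.00833 in neutrophils and 0.531, 0.648, 0.754 and 0.688 in monocytes and macrophages. In type 2 conventional dendritic cells (cDC2) it was 0.874, 1.45 and 1.50 in Uninjured, at 1 dpi and at 3 dpi, with *Ccl9* at 346, 463 and 406 CPM. The 24 basophils of the 1 dpi library held 852 CPM of *Ccl6* and 873 CPM of *Ccl9*. A *Ccl6* UMI was found in 60.0%, 59.5%, 50.4% and 67.1% of neutrophils at median depths of 3213, 4297, 1916 and 1320 UMIs, against 0 to 4.15% of B cells.

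*Ccl3* and *Ccl4*, which encode inflammatory chemokines made by many leukocytes, were high in NK cells, dendritic cells and the myeloid classes and were not called in monocytes and macrophages. Among gates of at least 20 cells, NK cells held the most *Ccl3* in Uninjured, at 3 dpi and at 7 dpi, and basophils at 1 dpi. Among the same gates *Ccl4* was highest in NK cells in Uninjured, in plasmacytoid dendritic cells at 1 and 3 dpi and in type 2 dendritic cells at 7 dpi. The basophils of 3 dpi, 18 cells and too few for a level, held 374 UMIs of *Ccl3* and 769 of *Ccl4*. These were 5.60% and 1.73% of the UMIs of each gene in that library, in 0.143% of its kept cells. In NK cells *Ccl4* stood at 8135 CPM in Uninjured (85 cells), 2976 at 1 dpi, 3069 at 3 dpi and 4221 at 7 dpi. NK cell *Ccl3* stood at 1923, 764, 642 and 1078 CPM. Endothelial cells held 0 to 37.0 CPM of either gene. At 1 dpi against Uninjured NK cells were 2.73-fold lower in *Ccl4* and 2.52-fold lower in *Ccl3*, and a UMI of *Ccl4* was found in 91.8% of NK cells in Uninjured and 75.1% to 84.5% after injury. The immediate early genes summed to 10642, 8832, 6982 and 9201 CPM in NK cells from Uninjured to 7 dpi. Their part in these *Ccl3* and *Ccl4* levels was not tested. In monocytes and macrophages *Ccl4* stood at 1914, 2490.4, 1780.2 and 1702 CPM and *Ccl3* at 646, 798, 465 and 698 CPM, and neither differed by 2-fold between successive libraries.

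The balance of the 2 genes differed between classes. The cDC2 held *Ccl4* at 3568, 3764, 4688 and 5047 CPM, and the plasmacytoid dendritic cells, which make type I interferon, at 6349.9 CPM at 1 dpi (35 cells) and 5575 at 3 dpi (62 cells). The UMI ratio of *Ccl4* to *Ccl3* was 14.0, 9.42 and 9.27 in cDC2 in Uninjured, at 1 dpi and at 3 dpi, 3.89 to 4.78 in NK cells and 2.44 to 3.83 in monocytes and macrophages. Among gates of at least 20 cells, the basophils of 1 dpi held the most *Ccl3*, at 4443 CPM on 819 UMIs in 24 cells. Their *Ccl4* stood at 4698 CPM. Among T cells those with *Cd8a* and no *Cd4* held *Ccl4* at 432, 515, 906 and 707 CPM, and those with *Cd4* and no *Cd8a* at 193, 46.6, 151 and 4.42 CPM. The 4.42 CPM (0.112-24.6) rests on 1 UMI in 86 cells and the 193 CPM on 36 UMIs in 56 cells.

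In neutrophils the pair was lowest before injury and highest at 7 dpi. Neutrophil *Ccl3* stood at 33.1 CPM in Uninjured (8 UMIs), 88.5 at 1 dpi, 173 at 3 dpi and 791 at 7 dpi (88 UMIs). Neutrophil *Ccl4* stood at 0, 71.7, 39.3 and 1132 CPM, the last on 126 UMIs. From 3 to 7 dpi the ratio was 4.56 (3.43-6.03) for *Ccl3* and 28.8 (19.1-44.8) for *Ccl4*. These 7 dpi levels rest on few cells, and the intervals cover counting error only. The 10% of neutrophils with most UMIs of the gene held 76.1% for *Ccl3* and 83.3% for *Ccl4* at 7 dpi. Such shares were 88.6% and 80.7% at 1 dpi, and 97.7% for *Ccl3* at 3 dpi. A *Ccl4* UMI was found in 16 neutrophils of 7 dpi. The gate held 50, 435, 264 and 73 cells, and a *Ccl3* UMI was found in 26.0% of them at 7 dpi against 2.99% of endothelial cells, at median depths of 1320 and 2975 UMIs. The 7 dpi neutrophils held 126 CPM of *Cd68*, a macrophage transcript, on 14 UMIs, against 16.3 to 45.5 CPM in the other libraries and 498 CPM in monocytes and macrophages of 7 dpi. The part of such UMIs in the *Ccl3* and *Ccl4* levels was not tested.

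*Ccr2* encodes the receptor of CCL2, CCL7 and CCL12, and in monocytes and macrophages its level was steadier than that of its ligands. Receptor protein and response to the ligands were not measured. Classical monocytes held 734, 723, 784 and 893 CPM and macrophages 769, 488, 623 and 573 CPM. Pooled monocytes and macrophages stood at 734, 664, 701 and 776 CPM, with ratios of 0.906 (0.857-0.958), 1.06 (1.01-1.10) and 1.11 (1.03-1.19) between successive libraries. The cDC2 held 453, 516, 486 and 421 CPM. Endothelial cells held 1 UMI over the 4 libraries, and mesenchymal cells 0.302 to 4.60 CPM. The macrophage level was below the classical monocyte level after injury, at 0.675 (0.634-0.718), 0.794 (0.734-0.858) and 0.642 (0.557-0.738) of it, and could not be separated from it in Uninjured (ratio interval 0.932-1.17).

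The lymphoid classes moved more. NK cell *Ccr2* stood at 223, 467, 604 and 325 CPM, with a ratio of 2.09 (1.65-2.70) at 1 dpi against Uninjured. T cell *Ccr2* stood at 38.8, 160.4, 181 and 127 CPM, with a ratio of 4.13 (3.13-5.56) at 1 dpi against Uninjured. The classical monocyte panel in the T cell gate stood at 236, 779, 1054 and 415 CPM, and its part in the T cell *Ccr2* level was not tested. A *Ccr2* UMI was found in 32.9%, 70.1%, 77.4% and 50.5% of NK cells, at median depths of 3150, 4631, 3407 and 2366 UMIs, and in 0 to 1.54% of endothelial cells, at 2585 to 4178 UMIs. The upper limit for the 0 of 22 endothelial cells in Uninjured is 15.4%. In the T cells with *Trdc* (the constant region of the delta chain) and neither *Cd4* nor *Cd8a* it stood at 290, 260.0 and 345 CPM at 1, 3 and 7 dpi, above the 83.7, 141 and 108 CPM of *Cd8a* cells. By 3 dpi NK cells held 18.3% of all *Ccr2* UMIs and monocytes and macrophages 38.1%, against 7.23% and 74.3% at 1 dpi. These shares also depend on cell numbers. NK cells were 4.25% of the kept cells at 3 dpi and monocytes and macrophages 6.64%, against 3.47% and 16.7% at 1 dpi. In thinned monocytes and macrophages of 1 dpi, *Ccl2* was found in 60.2% of cells with *Ccr2* and 75.9% of cells without. In the other 3 libraries the intervals of these shares overlapped, at 33.9% and 35.9% in Uninjured, 30.1% and 27.8% at 3 dpi and 34.0% and 37.7% at 7 dpi.

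One small gate stood out for *Ccl2*. The 30 mast cells of 3 dpi, which release histamine and proteases, held 1719 CPM on 72 UMIs and 860 CPM of *Ccl7* on 36 UMIs, against 65.6 and 70.1 CPM in B cells. Their *Cd68* count was 0, their *Col1a1* level 191 CPM against 4335 CPM in mesenchymal cells of that library, and their level of *Dcn*, another mesenchymal transcript, 1815 CPM (76 UMIs) against 8506 CPM. The part of mesenchymal RNA in these levels was not tested. At 7 dpi the 54 mast cells held 681 CPM of *Ccl2* beside 14392 CPM of *Col1a1*, the level of mesenchymal cells (13375 CPM), and whether the *Ccl2* belongs to mast cells there was not tested. These gates were singled out after their values were seen.

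The other genes of the pathway were read from lists. Of 8 interferon stimulated genes, 7 were 2-fold or more higher in monocytes and macrophages at 1 dpi (*Ifit2* by 47.7 times) and 6 in mesenchymal cells (*Rsad2* by 10.3 times), and 0 lower, beside the 18.1% and 6.73% of all genes tested that were higher in these classes. In both later steps 5 of the 8 were lower in each of the 2 classes, and 0 higher, beside 4.09% to 8.66% of all genes lower. Of the inducers and genes of the NF-kB response, which include *Tnf*, *Il1b* and *Il6*, 5 of 10 tested were higher in mesenchymal cells at 1 dpi and 5 of 11 in monocytes and macrophages, beside the same 6.73% and 18.1%. The largest mesenchymal ratio, 11.6 for *Il1b*, was of levels under those of B cells, 1.18 and 13.8 CPM against 44.3 and 21.0 CPM, with 4056 CPM in neutrophils of 1 dpi. From 3 to 7 dpi 4 were lower in each class, beside 6.05% of all genes tested in mesenchymal cells and 8.66% in monocytes and macrophages. *Il6* was 4.11-fold lower in mesenchymal cells and 4.29-fold lower in monocytes and macrophages. Medians of these lists at 1 dpi were 2.13 and 0.82 in mesenchymal cells and 3.05 and 0.72 in monocytes and macrophages on the log2 scale.

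Among 11 other CC chemokines and *Cx3cl1*, 5 were tested in mesenchymal cells at 1 dpi with 3 higher and 0 lower (6.73% and 4.43% of all genes), and 4 in monocytes and macrophages with 0 higher and 1 lower (18.1% and 2.36% of all genes). The lower gene was *Ccl17*, a CCR4 ligand. The size of its ratio, and that of *Ccl20* below, is left out because neither carries an interval and both can rest on very few UMIs. Except for *Il1b*, mesenchymal levels of the listed genes were not set beside a background class. *Ccl20*, a CCR6 ligand, had the largest ratio in mesenchymal cells from 1 to 3 dpi, and *Ccl19*, a CCR7 ligand, was 5.26-fold lower from 3 to 7 dpi. Among receptors, *Cx3cr1*, a marker of resident and nonclassical cells, was 3.96-fold lower in monocytes and macrophages at 1 dpi. The decoy receptor gene *Ackr2* was 3.08-fold lower in mesenchymal cells from 1 to 3 dpi. Of 4 growth factors of the monocyte line, *Csf1* was the one tested in monocytes and macrophages, at 2.41 times at 1 dpi and 2.61-fold lower at 3 dpi, and in mesenchymal cells it was 3.92-fold lower from 3 to 7 dpi.

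Likeness of pattern was measured as Pearson's r of log2(CPM + 5) over 52 points, each a gated class in a library, against all genes with 500 or more UMIs. The points share libraries, depth and free RNA, so r is a description. Among member pairs r was highest for *Ccl2* and *Ccl7* (0.897), *Ccl3* and *Ccl4* (0.884), *Ccl4* and *Ccr2* (0.877), *Ccl3* and *Ccr2* (0.860), *Ccl7* and *Ccl8* (0.843) and *Ccl6* and *Ccl9* (0.839), and lowest for *Ccl4* and *Ccl11* (-0.513). Outside the members, *Ccl2* was most like *Mmp19* (0.891) and *Ifi204* (0.874), *Ccl7* like *Cfb* (0.849) and *Ccl8* like *G530011O06Rik* (0.872). *Ccl12* was most like *Cbr2* (0.929), *Siglec1* (0.927) and *Folr2* (0.924), genes of tissue macrophages. *Ccl6* followed *Ptafr* (0.961) and *Cd14* (0.957), *Ccl9* followed *Clec4a3* (0.955), *Ccl11* followed *Gsn* (0.899), *Ccl3* followed *Fcer1g* (0.903), *Ccl4* followed *Epsti1* (0.883) and *Ccr2* followed *Otulinl* (0.919).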

How the data were processed

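Tibial muscles of *Nse-Bmp4* mice, 3 pooled per time point, gave 4 droplet libraries. The reads were aligned to mm10 by the authors, per the labels, with STAR within Cell Ranger 5.0.0, and the deposited values are unscaled UMI counts. The methods also describe a down-sampling of reads, without stating if it came before or after these counts. Seurat 3.1.1 stands in the submitters' processing notes.

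Barcodes were kept within 2 SD of the library mean in log10 UMIs and log10 genes and with at most 10% mitochondrial UMIs. The 7.5% with the highest Scrublet scores (scanpy 1.11.5) were removed as likely doublets. A gate needed UMIs of 3 of its 6 markers and a lead of 2 markers over the other panels, or of 1 over related ones. Sums per class were scaled to CPM. Intervals are exact Poisson for levels, conditional exact binomial for ratios and Clopper-Pearson for shares, at 95%, and cover counting error only. Levels needed 20 cells and changes 50, and 3 UMIs served as the floor where a class held 0. Computation used pandas 2.3.3, scipy 1.17.1 and numpy 2.4.6 in Python 3.11.15, with plots from matplotlib 3.10.9. The ratio intervals were run on simulated Poisson counts, which checks their computation. The simulation leaves out the clumping of UMIs within cells, so it cannot tell how well the intervals hold for these data.

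All 10 members are given with values. Of the other lists, the counts past 2-fold and the genes with the largest ratios are given, and for each member up to 3 genes of highest r. Results on some genes of these lists are left out here. Members and lists were chosen with earlier results of these data known. Alternatives were other gate limits (2 or 4 of 6 markers), no doublet removal, linear SD limits, all barcodes, equal weight per cell, thinning to 1000 UMIs, no UMI minimum and a pseudocount of 1 CPM. Classical monocytes or macrophages alone and levels minus those of B cells were added after the data had been seen.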

Additional observations from a re-analysis of the deposited data

Results flagged for a closer look

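*Ccl2* moved in opposite directions in mesenchymal cells and in monocytes and macrophages. From 1 to 3 dpi its log2 ratio was 0.986 in mesenchymal cells and -2.34 in monocytes and macrophages, and from 3 to 7 dpi it was -1.78 and 0.498. *Ccl7* did the same from 1 to 3 dpi, with 0.871 in mesenchymal cells and -2.49 in monocytes and macrophages. *Ccl8* moved the other way round over the same step, with -0.586 in mesenchymal cells and 0.113 in monocytes and macrophages. The pooled *Ccl8* value goes with a change in the mix of gates. At 3 dpi macrophages held 397 CPM against 764 at 1 dpi. Classical monocytes held 8.87 against 48.5 and mixed cells 34.9 against 142. The level was thus lower in each gate of at least 20 cells, while macrophages went from 366 of 1609 cells to 430 of 837. Each of these was singled out because the only library of each time point gave a lower level in one class and a higher level in the other. With 1 library per time point the difference between the classes was not tested.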

How the results depend on the processing

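No paired analysis was possible because each group had 1 library. Over all alternatives, 0 of 211 recomputed values of the 28 called log2 ratios changed sign, and 192 stayed past 2-fold. The counts of members called moved as follows, and the cause was not tested. In mesenchymal cells at 1 dpi against Uninjured, 4 members instead of 9 were higher with cells thinned to 1000 UMIs. From 1 to 3 dpi, 1 instead of 0 was higher with 4 of 6 markers required or with all barcodes, and 2 with the SD limit on linear counts, while 0 instead of 4 were lower with thinned cells and 2 with equal weight per cell. From 3 to 7 dpi, 1 instead of 3 was higher with 4 of 6 markers or without doublet removal, and 0 with all barcodes. In monocytes and macrophages without doublet removal or with all barcodes, 1 instead of 0 was lower at 1 dpi against Uninjured and 1 instead of 0 from 3 to 7 dpi. In classical monocytes alone, a choice made after seeing the data, 5 instead of 3 were lower from 1 to 3 dpi, and 1 was higher and 1 lower from 3 to 7 dpi. No share of all genes called is given for that gate, so its counts cannot be read as more or fewer than among genes at large. The remaining 92 recomputed counts were close to those reported. Among recomputed values other than these counts, 238 were labelled as moved and 282 as the same. Intervals cover counting error only, since no time point had a second library. Fewer than 20 cells gave no level, and the macrophage gate of Uninjured rests on 66 cells. A low level has to be read beside the background class of the same gene, which for *Ccl2* reached 72.5 CPM in B cells.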
